A study of Mus musculus with 4 samples.

Results

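Protein kinase C (PKC) isoforms were examined in hippocampal RNA of wild-type (WT) mice and of Lsd1 knock-in (KI) mice. The members are 8 PKC genes, Prkca, Prkcb, Prkcd, Prkce, Prkch, Prkci, Prkcq and Prkcz, matched by symbol to Ensembl gene IDs, of 26328 genes listed in at least 1 sample. All 8 were found, each with 1 gene ID. The series holds 4 samples, 2 WT and 2 KI, all from hippocampus of male C57BL/6 mice. In the KI mice both Lsd1 alleles carry an alanine in place of the serine of LSD1, a histone lysine demethylase, that PKCα phosphorylates, and the controls are WT littermates. The mice of the behavioral tests were 8 to 15 weeks old, and the age of the mice used for RNA is not given separately. The labels number the 2 samples of a group as replicates without saying whether each is 1 mouse, so the p-values measure the spread between these samples. The KI allele is carried by every cell of the body, and the tissue is bulk hippocampus, in which fewer cells of a type and less RNA per cell cannot be told apart.

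PKC is a family of serine/threonine kinases that relay lipid and calcium signals. Conventional isoforms (PKCα and PKCβ, genes Prkca and Prkcb) need calcium and diacylglycerol. The isoforms here called calcium-independent (PKCδ, PKCε, PKCη and PKCθ, genes Prkcd, Prkce, Prkch and Prkcq) need diacylglycerol alone. Atypical isoforms (PKCι and PKCζ, genes Prkci and Prkcz) need neither and are steered by partner proteins. They are kept as a separate class, outside the one called calcium-independent. In hippocampal neurons PKC acts at both sides of the synapse, where it promotes transmitter release after a tetanus and takes part in long-term potentiation. The comparison asks whether the RNA of the kinase family differs between mice whose LSD1 can and cannot be phosphorylated by PKCα.

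The starts of the genes were read from RefSeq promoters (GRCm38.p6, 250 bases before to 50 bases after a transcript start). RefSeq windows were matched for 6 of the 8 members, 9 windows in all, and Prkce and Prkch were not matched. Prkcd is shown because it had the widest difference between groups, by its first window (chr14:30626159-30626458, minus strand). Prkcz is shown because it has internal starts, whose transcripts the gene-level value cannot separate from the full-length ones. Its second window (chr4:155345740-155346039, minus strand) is the one shown. Capitals mark matches, on either strand, to an E-box (CACGTG), a cAMP response element or CRE (TGACGTCA), an AP-1 site (TGANTCA), a GC box (GGGCGG) or a TATA box (TATAAA).
Prkcd, first start: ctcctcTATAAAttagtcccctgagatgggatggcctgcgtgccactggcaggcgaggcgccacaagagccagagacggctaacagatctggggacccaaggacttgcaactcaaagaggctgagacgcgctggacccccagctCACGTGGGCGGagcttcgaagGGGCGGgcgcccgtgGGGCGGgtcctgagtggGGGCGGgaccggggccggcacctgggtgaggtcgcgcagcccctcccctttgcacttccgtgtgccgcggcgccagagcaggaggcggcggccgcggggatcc
Prkcz, internal start: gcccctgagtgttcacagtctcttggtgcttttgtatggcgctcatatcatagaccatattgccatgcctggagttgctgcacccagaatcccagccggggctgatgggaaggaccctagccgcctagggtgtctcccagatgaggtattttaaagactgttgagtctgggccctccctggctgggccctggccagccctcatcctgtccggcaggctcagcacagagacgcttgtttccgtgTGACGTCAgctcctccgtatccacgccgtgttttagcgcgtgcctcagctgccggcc
The Prkcd window holds 1 E-box, the sequence bound by the circadian activator CLOCK:BMAL1, at position -106 from the start, and it shares a base with the first of 4 GC boxes. Among all 32851 promoter windows, 7.15% hold an E-box and 35.7% a GC box. Of each gene's windows, the one with an E-box (Prkcd) or a CRE (Prkcz) was printed, so those matches were part of the choice. A TATA box match in the same window begins at position -244. None of the other 8 member windows holds an E-box, and a second Prkcd window 15.9 kb into the gene (chr14:30610261-30610560) holds 0 matches to these 5 motifs. Prkcz has 2 internal starts in RefSeq. The one shown lies 15.6 kb inside the gene and outside its annotated exons in GENCODE M21, and its single CRE match begins at position -7 from it, against 1.79% of all windows with a CRE. The other (chr4:155344700-155344999) lies 16.6 kb inside, in an exon, with 2 GC boxes and 0 CRE matches. An internal Prkcz promoter is known in brain as the source of PKMζ, the constitutively active kinase fragment studied in memory maintenance, and which of the 2 starts serves it was not analysed here. GC content was 69.3% in the first Prkcd window, 51.3% in the second and 59.3% and 58.3% in the internal Prkcz windows, with a median of 52.7% over all windows.

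Depth was recovered from the values, because the RPKM of a gene (its reads divided by its exon length and by the mapped reads of the sample) comes in whole-read steps, and lay between 8827967 mapped reads in WT replicate 2 and 14949756 in KI replicate 2. The members rested on between 32 reads (Prkch in WT replicate 2) and 10369 reads (Prkce in KI replicate 2). Counting error alone was therefore at most 5.92% for each Prkcd value and between 11.9% and 17.7% for the Prkch values. Kdm1a, the gene encoding LSD1 and carrying the KI allele, was at 11.6 and 11.2 RPKM in WT and at 10.97 and 11.2 RPKM in KI, so its level does not check the genotype labels, and the substituted codon was not analysed here. The 10 markers of hippocampal principal neurons were all tested and summed to between 306.6 RPKM in KI replicate 1 and 345.9 RPKM in WT replicate 1.

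Prkce and Prkcb had the highest RNA levels of the 8 genes, and the order of levels spanned more than 2 orders of magnitude down to Prkch. Over the 4 samples the mean level was 96.0 RPKM for Prkce, 87.1 RPKM for Prkcb, 43.9 RPKM for Prkca, 22.7 RPKM for Prkcz, 11.7 RPKM for Prkci, 8.96 RPKM for Prkcd, 1.80 RPKM for Prkcq and 0.805 RPKM for Prkch. Among the 18436 genes tested (at least 0.5 RPKM in at least 2 samples), Prkce stood at percentile 97.4, Prkcb at 97.1, Prkca at 92.7, Prkcd at 62.2 and Prkch at 9.47 by mean level. Of neighbors in this order, Prkce and Prkcb overlapped in their ranges (lowest Prkce 89.7 RPKM, highest Prkcb 91.4 RPKM), although Prkce was higher within each of the 4 samples, by 1.07-fold to 1.11-fold. Prkci and Prkcd also overlapped, as Prkcd was above Prkci in KI replicate 1 and below it in the other 3 samples. All other neighbors were apart in every sample, with Prkcb 1.98-fold above Prkca, Prkca 1.93-fold above Prkcz and Prkcz 1.94-fold above Prkci in mean RPKM. Levels between genes rest on the exon length behind each value. That length was 4749 bases for Prkcb and 4519 for Prkch, against 7651 and 7530 in GENCODE M21. For Prkca, Prkce and Prkcz it was the same in both, and for the other members the difference was smaller. Its effect on the order was not tested.

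**Figure D1:**
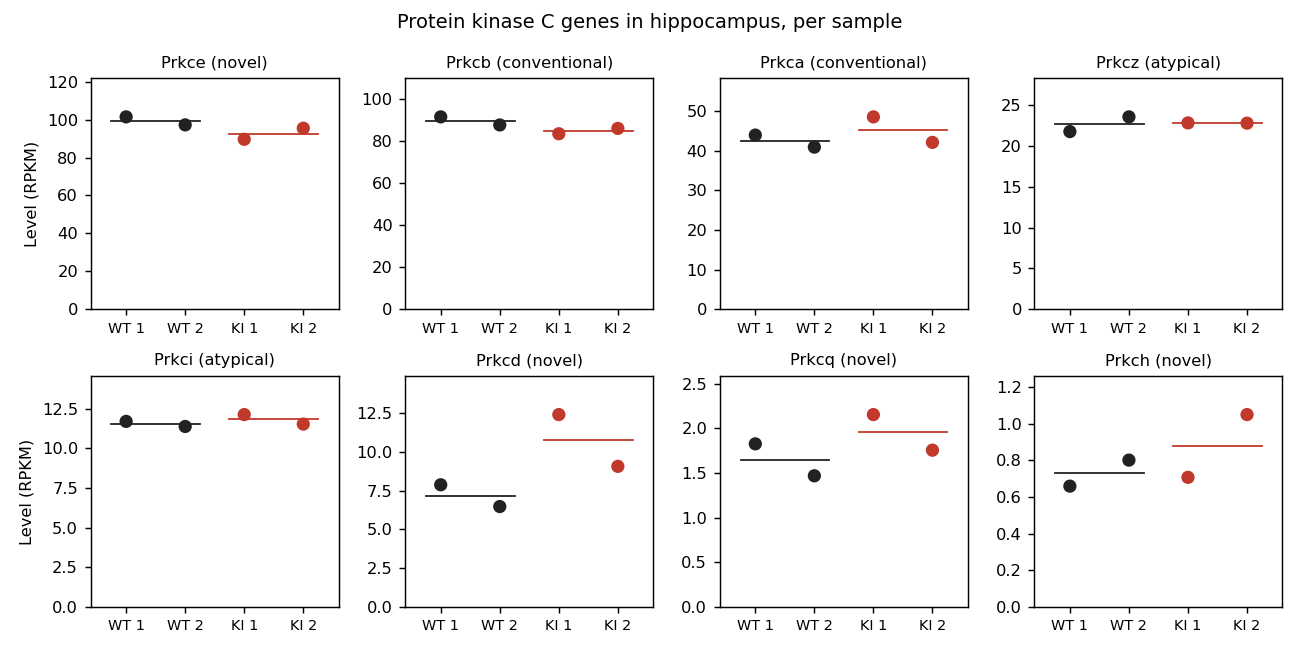
RNA level (RPKM, from 0) of each PKC gene in each sample, ordered by mean level over the samples. Points are single samples (WT black, KI red) and lines are group means (n = 2). Prkcd is the gene in which both KI samples, at 12.4 and 9.07 RPKM, lie above both WT samples, while Prkce and Prkcb lie below.

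When KI and WT were compared with limma, 0 of the 8 PKC genes passed an adjusted p of 0.1 with at least a 1.2-fold change, as did 0 of the 18436 genes tested (0.00%). The paper, with edgeR at an adjusted p of 0.1 and 1.5-fold, did report genes changed in both directions. The count of 0 holds for the limma fit, filter and thresholds used here. Of 13 alternative settings, 10 also gave 0 and the others gave up to 52 genes. The reason for the difference from the paper was not tested. Before adjustment, 1 of the 8 genes, Prkcd, had a limma p under 0.05, beside 9.62% of all genes tested. It was higher in KI, the direction of 6.30% of all genes tested at that p, and 0 of the 8 were lower, beside 3.33%. The KI pair was wholly higher than the WT pair for 1 PKC gene (24.0% of all genes tested) and wholly lower for 2 (18.1% of all genes tested), and the groups overlapped for 5. Against these shares, neither count is read as a result about PKC. The median log2 fold change, on the log2(RPKM + 1) scale, was 0.06 over the 8 genes and 0.01 over all genes tested. With 2 against 2 samples, an exact two-sided permutation test of a single gene cannot go below a p of 0.33.

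Of the conventional isoforms, Prkca (ENSMUSG00000050965, chr11:107933387-108343928 in GRCm38, minus strand) encodes PKCα, the kinase of the LSD1 site that the KI mice lack. Its level was 44.0 and 40.9 RPKM in the WT samples and 48.6 and 42.1 RPKM in the KI samples. KI replicate 1 was the highest and KI replicate 2 fell between the WT samples, so the groups overlapped. The WT mean was 42.4 ± 2.2 RPKM and the KI mean 45.3 ± 4.6 RPKM (SD, n = 2), with a log2 fold change of 0.09 (95% interval -0.14 to 0.32, adjusted p = 0.774 from limma). The interval leaves room for a change between 0.910-fold and 1.24-fold on this scale. An exon of Prkca overlaps Apoh on the opposite strand in GENCODE M21, and reads of the 2 genes cannot be told apart there unless counting used strand, which the sources used here do not give. Prkca rested on at least 3248 reads a sample.

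Prkcb (ENSMUSG00000052889, chr7:122288751-122634402, plus strand) encodes PKCβ, the other conventional isoform. Its level was 91.4 and 87.6 RPKM in WT and 83.4 and 85.9 RPKM in KI. Both KI samples were below both WT samples, with a narrow gap between the nearest values. The log2 fold change was -0.08 (standard error 0.05, 95% interval -0.21 to 0.05, adjusted p = 0.642 from limma), and the mean in KI was 0.946 of that in WT.

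Among the calcium-independent isoforms, Prkcd (ENSMUSG00000021948, chr14:30595354-30626210, minus strand) had the widest difference of the family. PKCδ is known from signaling in apoptosis and as a marker of thalamic relay neurons and of a class of central amygdala neurons. Its level was 7.88 RPKM (527 reads) and 6.48 RPKM (285 reads) in WT, and 12.4 RPKM (890 reads) and 9.07 RPKM (676 reads) in KI. Both KI samples were above both WT samples, and the KI samples also differed from each other. The WT mean was 7.18 ± 0.99 RPKM and the KI mean 10.7 ± 2.4 RPKM (SD, n = 2), which is 49.6% higher. The log2 fold change was 0.51 (standard error 0.17, 95% interval 0.06 to 0.96), with a limma p of 0.0327 before and 0.490 after adjustment, so it did not pass the test. Without KI replicate 1 the log2 fold change was 0.31 (adjusted p = 0.734 from limma), and it ran up to 0.72 without KI replicate 2. Counting error was between 3.35% and 5.92% per sample, smaller than the gaps within either group.

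Prkce (ENSMUSG00000045038, chr17:86167785-86657919, plus strand) encodes PKCε, a calcium-independent isoform found in presynaptic terminals. Its level was 101.5 and 97.3 RPKM in WT and 89.7 and 95.5 RPKM in KI. Both KI samples were below both WT samples, with KI replicate 1 the lowest. The log2 fold change was -0.10 (standard error 0.05, 95% interval -0.25 to 0.04, adjusted p = 0.605 from limma), and the mean in KI was 0.932 of that in WT. An exon of Prkce overlaps AC154542.1 on the same strand in GENCODE M21.

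Prkcq and Prkch were the lowest members. Prkcq (ENSMUSG00000026778, chr2:11172108-11301222, plus strand) encodes PKCθ, known for T cell receptor signaling, and was at 1.83 and 1.47 RPKM in WT and 2.15 and 1.76 RPKM in KI. WT replicate 1 lay between the KI samples. The log2 fold change was 0.16 (95% interval -0.19 to 0.51, adjusted p = 0.740 from limma). Prkch (ENSMUSG00000021108, chr12:73584796-73778185, plus strand) encodes PKCη, best known from epithelia, and was at 0.660 RPKM (40 reads) and 0.802 RPKM (32 reads) in WT and at 0.708 RPKM (46 reads) and 1.05 RPKM (71 reads) in KI. KI replicate 1 lay between the WT samples, and the log2 fold change was 0.11 (95% interval -0.28 to 0.51, adjusted p = 0.848 from limma). Of 6 T lymphocyte markers, Cd3d, Cd3e and Cd3g had no row in any sample, and the others summed to between 0.359 and 0.619 RPKM.

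The atypical isoforms had the narrowest differences. Prkcz (ENSMUSG00000029053, chr4:155260129-155361361, minus strand) was at 21.8 and 23.6 RPKM in WT and at 22.8 RPKM in both KI samples. Both KI values fell between the WT values, and the log2 fold change was 0.01 (95% interval -0.15 to 0.17, adjusted p = 0.977 from limma), which leaves room for 0.903-fold to 1.12-fold. Prkcz lies on the same chromosome as Kdm1a, 18.7 Mb away. Full-length PKCζ and PKMζ transcripts share the downstream exons and are summed in this value. Prkci (ENSMUSG00000037643, chr3:30995747-31052959, plus strand) encodes PKCι, a partner of the PAR polarity proteins, and was at 11.7 and 11.4 RPKM in WT and 12.1 and 11.5 RPKM in KI. The groups overlapped, and the log2 fold change was 0.03 (95% interval -0.13 to 0.19, adjusted p = 0.905 from limma).

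**Figure D2:**
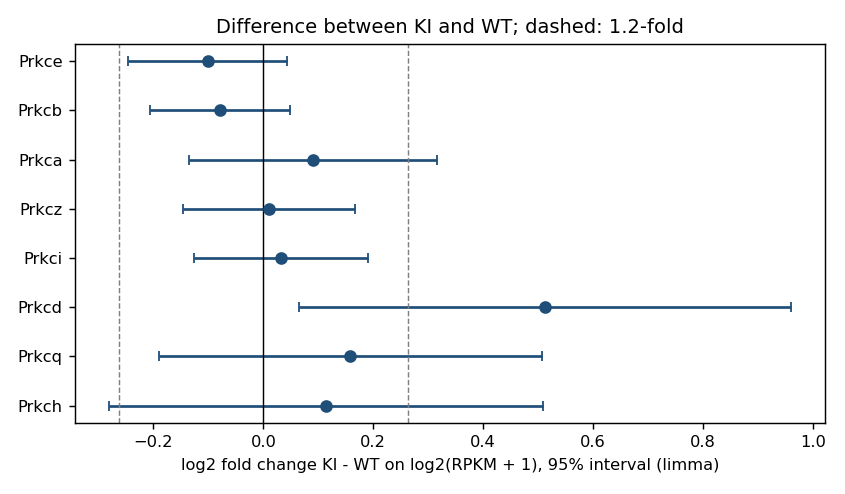
Log2 fold change (KI minus WT, on log2(RPKM + 1)) of each PKC gene with its 95% interval from limma (n = 2 each); dashed lines mark 1.2-fold. The Prkcd interval, from 0.06 to 0.96, lies above 0 before adjustment, and the other 7 intervals include 0.

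The summed RNA level of the 8 genes spanned a narrow range, and was 280.7 and 269.5 RPKM in WT and 271.8 and 269.8 RPKM in KI, and the KI values fell between the WT values. Conventional isoforms made up 48.0% ± 0.4 of the sum in WT and 48.0% ± 0.8 in KI. Calcium-independent isoforms other than the atypical ones made up 39.6% ± 0.4 in WT and 39.2% ± 0.9 in KI. Atypical isoforms made up 12.4% ± 0.7 in WT and 12.8% ± 0.1 in KI (SD, n = 2 each, for all classes). Within the calcium-independent class, the share of Prkcd in the sum was 2.81% and 2.40% in WT and 4.57% and 3.36% in KI. The share of Prkce was 36.2% and 36.1% in WT and 33.0% and 35.4% in KI. KI replicate 1 thus held the highest Prkcd share and the lowest Prkce and Prkcb shares of the 4 samples, and its Prkca share, 17.9%, was also the highest, against 15.2% to 15.7% in the others. Prkce, Prkcb and Prkca together made up 81.5% to 84.4% of the sum.

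**Figure D3:**
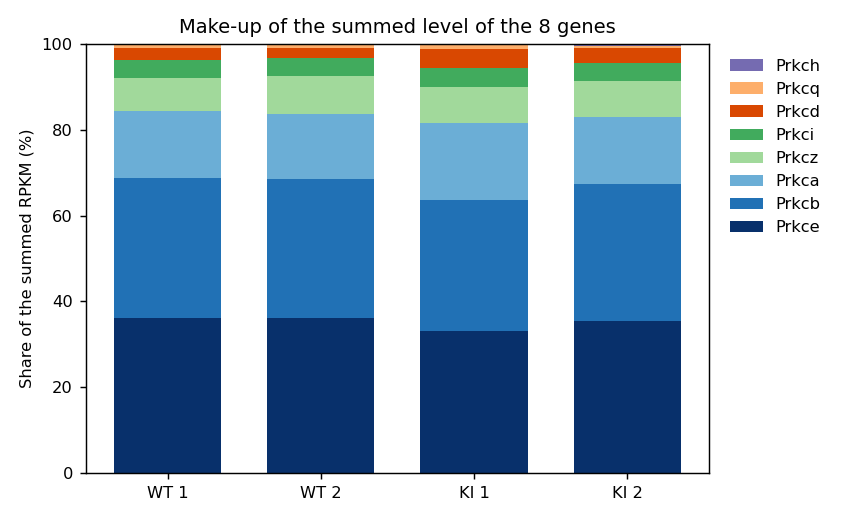
Share (%) of each PKC gene in the summed RPKM of the 8 genes, 1 bar per sample. Prkce, Prkcb and Prkca fill 81.5% to 84.4% of every bar, and the Prkcd share is 4.57% and 3.36% in KI against 2.81% and 2.40% in WT.

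Markers of neighboring tissues were read beside Prkcd. The 10 thalamus markers summed to 35.0 and 36.6 RPKM in WT and 39.1 and 35.4 RPKM in KI, so the groups overlapped. Of the 8 thalamus markers tested, 3 lay higher in both KI samples (24.0% of all genes tested) and 0 lower (18.1%), with a median log2 fold change of 0.00, and Rgs16 (WT mean 2.43 ± 0.19 RPKM, KI mean 3.85 ± 0.14 RPKM, SD, n = 2) was the widest, at 0.50 (adjusted p = 0.340 from limma). Tcf7l2, a defining thalamic transcription factor, was under 0.5 RPKM in every sample and not tested. It was at 0.418 and 0.454 RPKM in WT and lower, at 0.350 and 0.375 RPKM, in KI. Patj, also not tested, was at 0.393 and 0.398 RPKM in WT and higher, at 0.489 and 0.506 RPKM, in KI. Slc17a6, the thalamic vesicular glutamate transporter, was at 4.90 and 5.90 RPKM in WT and 6.33 and 4.74 RPKM in KI. The 7 neocortex markers summed to 28.8 and 31.1 RPKM in WT and 36.0 and 34.3 RPKM in KI, above both WT samples. Of the 6 neocortex markers tested, 4 lay higher in both KI samples (24.0% of all genes tested), among them Rspo1 (log2 fold change 0.62) and Cux2 (0.30).

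Choroid plexus RNA, from the ventricle lining next to the hippocampus, stood out in a single sample. The 6 choroid plexus markers summed to 14.2 and 19.8 RPKM in WT, 60.8 RPKM in KI replicate 1 and 16.8 RPKM in KI replicate 2. Ttr, the main product of that tissue, was at 51.3 RPKM in KI replicate 1 and between 8.13 and 13.8 RPKM in the other 3 samples, and Kl was at 4.87 and 5.14 RPKM in WT and 7.05 and 6.72 RPKM in KI. KI replicate 1 is also the sample with the highest Prkcd, Prkca, Prkci and Prkcq levels and the lowest Prkce and Prkcb levels. In KI replicate 2 the summed markers lay between the WT sums, Kl and Aqp1 were above both WT samples and Folr1 below both, and Prkcd was at 9.07 RPKM. Of the 10 hippocampal principal neuron markers, 3 lay wholly lower in KI (18.1% of all genes tested) and 2 wholly higher (24.0%). The 2 higher ones were Pou3f1 and Bok. For 5 markers the groups overlapped, among them Calb1, at 24.4 and 21.8 RPKM in WT and 15.55 and 22.6 RPKM in KI. The 3 lower ones, Prox1, C1ql2 and C1ql3, are markers of dentate granule cells. Prox1 was at 17.3 and 16.9 RPKM in WT and 10.2 and 13.1 RPKM in KI (log2 fold change -0.52, adjusted p = 0.405 from limma), C1ql2 at 41.8 and 44.0 RPKM against 30.7 and 34.2 RPKM, and C1ql3 at 39.0 and 39.2 RPKM against 25.5 and 33.3 RPKM. The part of these tissues and cells in the PKC values was not tested.

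Of the other marker lists, striatum markers summed to 49.0 and 47.1 RPKM in WT and 53.2 and 49.5 RPKM in KI, and endothelium markers to 53.8 and 60.9 RPKM in WT and 63.6 and 70.6 RPKM in KI. Astrocyte markers summed to 462.3 and 452.8 RPKM in WT and 476.2 and 490.3 RPKM in KI, so these 3 sums were higher in both KI samples. Single markers went both ways. Of the 7 striatum markers tested, 3 lay higher in both KI samples (24.0% of all genes tested) and 2 lower (18.1%). Of the 6 endothelium markers, 4 lay higher (24.0% of all genes tested) and 1 lower (18.1%). Of the 6 astrocyte markers, 3 lay higher (24.0%) and 1 lower (18.1%). Microglia markers (99.1 to 108.5 RPKM) and oligodendrocyte markers (775.3 to 1026 RPKM) overlapped between groups.

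**Figure D4:**
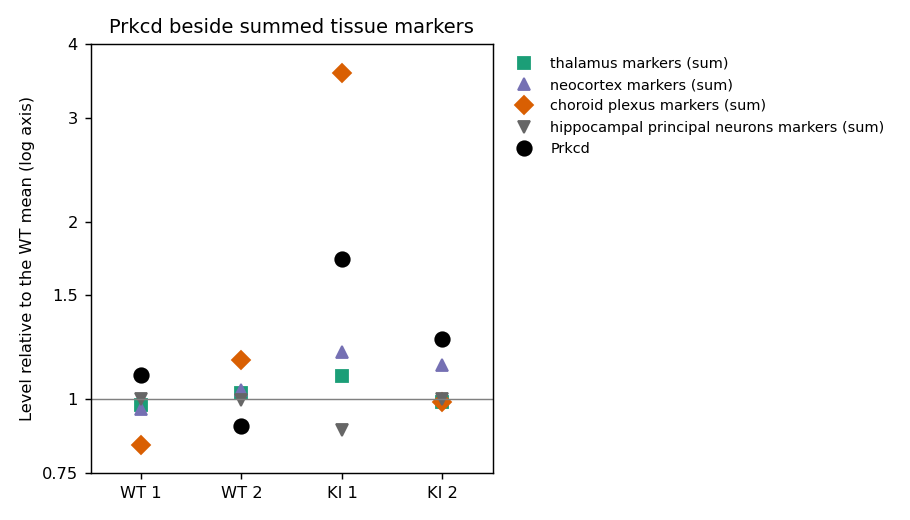
Prkcd and the summed RPKM of 4 marker lists in each sample, relative to the mean of the WT samples (log axis). Choroid plexus markers stand apart in KI replicate 1 (60.8 RPKM against 14.2 to 19.8 in the others), where Prkcd is also highest, at 12.4 RPKM.

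By the distance between profiles over the 4 samples, on log2(RPKM + 1) after subtracting each gene's own mean, the genes most like Prkcd among 18435 others were Mir6381, the pseudogene Uqcrh-ps1 and C130074G19Rik, at distances of 0.04, 0.06 and 0.06. The annotated Mir6381 gene had between 2 reads (WT replicate 2) and 7 reads (KI replicate 1), so its place is set by few reads. C130074G19Rik was at 7.52 and 5.86 RPKM in WT and 11.3 and 8.64 RPKM in KI. For Prkcq, the member with the next widest range, the nearest were Cdhr4, Oma1 and Nufip2, at distances of 0.01, 0.02 and 0.03. With 4 samples many genes share a profile, and the likeness is a description.

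Genes that act around PKC were taken from 6 lists with 62 genes in all. Of the 60 tested, 0 passed an adjusted p of 0.1 in limma, while 4 had a limma p under 0.05 before adjustment, 2 of them higher and 2 lower (6.67%, beside 9.62% of all genes). The KI pair was wholly higher than the WT pair for 17 genes and wholly lower for 18 (beside 24.0% and 18.1% of all genes tested), and the median log2 fold change was 0.00. No direction of a list was tested.

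Diacylglycerol, the lipid that activates conventional and calcium-independent PKC, is made by phospholipase C (PLC) downstream of Gq proteins. Of the 14 tested genes in this list, 6 lay higher in both KI samples (24.0% of all genes tested) and 3 lower (18.1%), with a median log2 fold change of 0.08 beside 0.01 over all genes. Plch1, a PLC of the eta type, was the widest, at 1.07 and 0.852 RPKM in WT and 1.69 and 1.54 RPKM in KI (log2 fold change 0.42, adjusted p = 0.468 from limma). Plcb2 had a log2 fold change of 0.25. At the other end, Gnaq, encoding the Gq subunit, was at 52.5 and 48.5 RPKM in WT and 45.7 and 46.3 RPKM in KI (-0.13), and Plcg2 had a log2 fold change of -0.16. Gna14 was below the expression filter.

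The 11 genes that remove diacylglycerol encode diacylglycerol kinases and diacylglycerol lipases. The KI pair was wholly lower than the WT pair for 5 genes (18.1% of all genes tested) and wholly higher for 1 (24.0%), and the median log2 fold change was -0.05. Dagla, which makes the endocannabinoid 2-arachidonoylglycerol from diacylglycerol, was at 43.1 and 44.1 RPKM in WT and 39.4 and 38.2 RPKM in KI (log2 fold change -0.16, adjusted p = 0.467 from limma). Dgki, a diacylglycerol kinase, had a log2 fold change of -0.21. The highest in this list were Dgkh, at 0.08, and Dgka, at 0.04.

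Newly made PKC is primed by PDK1 and mTORC2 with the help of Hsp90 and is dephosphorylated by PHLPP phosphatases. Of these 11 genes, 4 lay higher in both KI samples (24.0% of all genes tested) and 3 lower (18.1%), and 0 had a limma p under 0.05 (9.62%). Phlpp1 (-0.17) and the mTOR subunit gene Mlst8 (-0.15) had the lowest log2 fold changes, and Hsp90aa1, a gene of the Hsp90 chaperone, was at 0.14. Among 10 anchoring and scaffold genes, 3 lay higher in both KI samples (24.0% of all genes tested) and 2 lower (18.1%). Pard6a, a polarity scaffold that binds atypical PKC, was at 7.45 and 6.89 RPKM in WT and 9.19 and 8.98 RPKM in KI (log2 fold change 0.30, adjusted p = 0.399 from limma). Pard3, its partner, was at 0.07, Pick1 at -0.05 and Pard6b at -0.13.

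The 9 neuronal PKC substrates held 2 genes higher in both KI samples (24.0% of all genes tested) and 4 lower (18.1%), the last including Kdm1a (log2 fold change -0.04). Add2, encoding β-adducin of the actin-spectrin skeleton, was at 70.4 and 74.8 RPKM in WT and 60.2 and 61.6 RPKM in KI (log2 fold change -0.25, adjusted p = 0.364 from limma). Add1, encoding α-adducin, was at -0.09. Gap43, encoding a growth-cone and presynaptic protein, was at 71.2 and 68.0 RPKM in WT and 72.5 and 88.2 RPKM in KI (0.20), and Nrgn, encoding the postsynaptic protein neurogranin, was at 0.10. Of the 5 tested genes for related kinases, Prkd2 (0.20) was the highest and Pkn2 (0.04) next, and Prkd1 (-0.15) and Prkd3 (-0.02) were the lowest, with 0 under a limma p of 0.05 before adjustment.

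**Figure D5:**
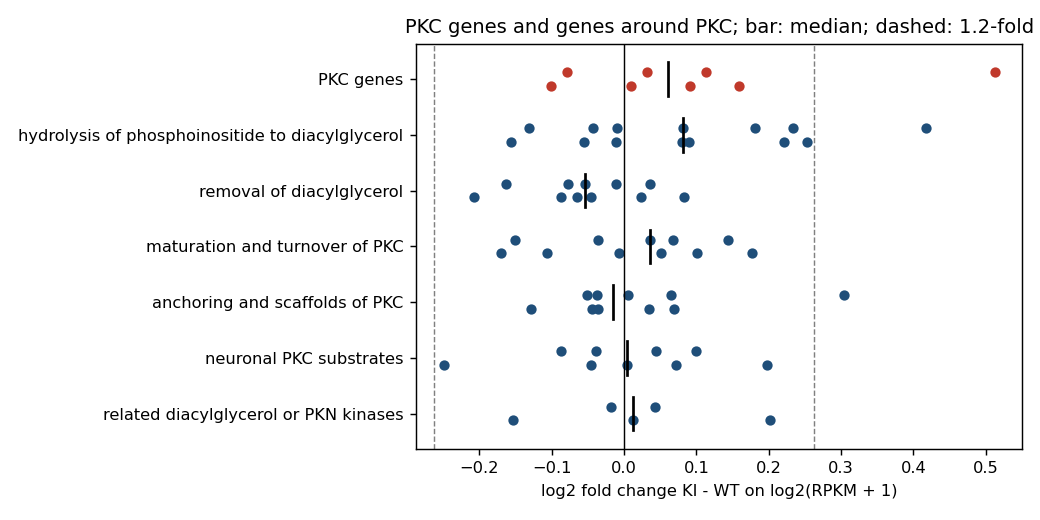
Log2 fold changes (KI minus WT, on log2(RPKM + 1)) of the PKC genes (red) and of the tested genes of 6 lists around PKC (blue); black bars are medians and dashed lines mark 1.2-fold. Prkcd (0.51), Plch1 (0.42) and Pard6a (0.30) lie beyond the upper line, and no plotted gene lies beyond the lower one.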

How the data were processed

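Per the file headers, the authors deposited RPKM (reads scaled by exon length and mapped library size) for genes of Ensembl release 74, 1 file per sample. They aligned read pairs to mm10 with GSNAP and kept uniquely and properly mapped pairs. The counting tool is not given in the sources used here. A gene without a row was set to 0. RPKM is scaled per sample, so a shift shared by all genes is not seen.

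Depth was read from genes whose RPKM equals 1 read over their exon length, by the most frequent value. Reads of a member use the shortest exon length giving whole reads in all 4 samples (tolerance 0.01). Groups were compared with limma 3.58.1 (R 4.3.3) on log2(RPKM + 1) with a mean-variance trend. P-values were adjusted by Benjamini and Hochberg over 18436 genes, those reaching 0.5 RPKM in 2 or more samples. This scale understates changes of genes with low RPKM. Code was tested on simulated data. Thresholds were an adjusted p under 0.1 and 1.2-fold. The study used edgeR, which needs counts and was not run here. Symbols and positions come from GENCODE M21 (GRCm38, the build of mm10), with 25729 of 26328 IDs matched. Python 3.11.15 and pandas 2.3.3 served elsewhere.

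The members and lists were chosen with earlier results of these data known. All members are named, and from each list the 2 genes at either end of the log2 fold changes, and from marker lists up to 2 with the widest change. Tcf7l2, Patj, Slc17a6, C1ql2, Calb1, Pou3f1, Bok, Aqp1, Folr1, the T lymphocyte markers, Apoh and Gna14 were named after their values were seen. 1 gene that the rule names is not reported here.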

Additional observations from a re-analysis of the deposited data

How the results depend on the processing

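The count of PKC genes called was 0 as reported and under all 13 alternatives, and the smallest adjusted p of a member, that of Prkcd, ran from 0.120 to 0.777 in limma. A filter of at least 2 RPKM in every sample left 6 of the 8 members tested, without Prkch and Prkcq. Over all genes the count of 0 became 20 (17 higher, 3 lower) without the mean-variance trend. A filter of at least 10 reads in every sample gave 1, lower in KI, and that filter with the replicate block gave 52 (43 higher, 9 lower). Both were added after seeing the data, and the cause of the changed counts was not tested. For both, reads were reckoned from GENCODE M21 exon lengths, at which 15929 of 25729 genes gave whole reads in all samples. The replicate block alone gave 0 genes and 0 members. The labels do not say whether same-numbered samples share more than a number. Their deviations from the group means had a correlation of -0.025 across genes, which cannot decide it with 1 pair of samples in each group. In fits that leave out 1 sample, the lone sample of its group is assumed to vary like the others.

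The number of members whose groups do not overlap was 3, and from 4 to 7 with 1 sample left out, since fewer values have to be separated. Directions reversed only there, for Prkca (-0.0098 to 0.19) and Prkci (-0.0017 to 0.066), both without KI replicate 1, for Prkch (-0.018 to 0.25) without KI replicate 2, and for Prkcz (-0.045 to 0.065) without WT replicate 1. The direction of Prkcb, Prkcd, Prkce and Prkcq was kept under every alternative in which the gene was tested. With 1 sample left out, Prkcd lay between 0.31 and 0.72, Prkcq between 0.061 (without WT replicate 2 or KI replicate 1) and 0.26, Prkce between -0.15 and -0.056 (without KI replicate 1) and Prkcb between -0.11 and -0.048 (without WT replicate 1). The summed level differed by -4.27 RPKM (KI minus WT), by -9.90 to 1.35 RPKM with 1 sample left out and by -8.49 RPKM when all samples were scaled to the same sum. Depth limits Prkch and Prkcq most.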
